A study of Homo sapiens with 84 samples.

Results

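Chromatin accessibility at 9 genes of neural basic helix-loop-helix (bHLH) factors was followed in cell lines of triple-negative breast cancer given an EZH2 inhibitor, an AKT inhibitor or both. The genes were the neurogenins NEUROG1, NEUROG2 and NEUROG3, the NeuroD genes NEUROD1, NEUROD2 and NEUROD4, the atonal gene ATOH1, and the oligodendrocyte genes OLIG1 and OLIG2. They were chosen by name, with earlier results of these data known. The value of each sums the counts of all peaks that the deposited annotation assigns to it within 10 kb of its transcription start. The genes are 9 of 24455 with such a peak, and they hold 70 of the 861439 peaks.

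The assay was ATAC-seq, in which the transposase Tn5 cuts and tags open DNA, in its Omni-ATAC form with 50000 cells in each transposition. MDA-MB-231, MDA-MB-468, SUM-149PT and SUM-159PT each had 4 groups, given the solvent DMSO, 5 uM tazemetostat (the EZH2 inhibitor), 5 uM ipatasertib (the AKT inhibitor) or the combination of both agents. The other 5 lines, HCC1143, HCC1395, HCC1937, BT-20 and BT-549, had only DMSO and combination groups. Each group had 3 replicate libraries, and no label says that these came from separate cultures. As described for MDA-MB-468, tazemetostat or DMSO was begun on day -5 and ipatasertib on day 0, in medium with 2% serum, and all groups were collected 24 hours later. Tazemetostat therefore acted for longer than ipatasertib, and all groups shared the low serum. Each is an established line, so that a line stands for 1 tumour, and the labels name no transgene or deletion.

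bHLH factors bind the hexamer CANNTG, the E-box, as dimers with the E proteins TCF3, TCF4 and TCF12, and ID proteins block this pairing. Neurogenins and ATOH1 commit progenitors to a neuronal or sensory fate, NeuroD factors act after them in differentiation, and OLIG1 and OLIG2 specify oligodendrocytes and motor neurons. Notch signalling through the HES and HEY repressors holds proneural genes down. In cells of other lineages these genes are textbook targets of Polycomb repressive complex PRC2, whose catalytic subunit EZH2 methylates lysine 27 of histone H3. AKT carries growth factor signals downstream of PI3K.

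Libraries held 12292571 to 21459284 counts in peaks, of which 31.6% to 43.3% lay within 10 kb of a gene start. Of 78 pairs of replicate libraries, 76 differed by less than the sampling noise of their counts. Both other pairs held the third DMSO library of HCC1395. The 3 libraries of a group were therefore summed to 1 sample, group levels carry no SD, and the lines are the replicates. Accessible DNA around the epithelial markers EPCAM, CDH1, KRT8, KRT18 and KRT5 summed under DMSO to between 81.5 CPM in BT-549 and 806 CPM in MDA-MB-468. The sum for the mesenchymal markers VIM, ZEB1, FN1 and TWIST1 lay between 205 CPM in MDA-MB-468 and 569 CPM in BT-549, and no marker of either list was at 0 in any line. Levels are CPM, counts scaled by the library's total within 10 kb of gene starts after TMM normalisation.

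The promoters of NEUROG1, NEUROG3, NEUROD4 and ATOH1 are shown because each lies wholly inside the peak over the gene's start, and each of these 4 peaks became more accessible under the combination. Printed are the 250 bases before the start on the gene's strand, 5′ to 3′, from RefSeq with GRCh38.p14 positions. Capitals mark E-boxes (CANNTG, which reads the same on both strands).
NEUROG1, chr5:135535965-135536214, minus strand: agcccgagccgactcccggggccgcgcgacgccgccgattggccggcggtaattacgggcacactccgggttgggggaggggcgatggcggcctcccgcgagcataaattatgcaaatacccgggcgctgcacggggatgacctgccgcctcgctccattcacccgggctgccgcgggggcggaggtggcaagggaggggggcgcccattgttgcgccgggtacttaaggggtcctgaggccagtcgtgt
NEUROG3, chr10:69573423-69573672, minus strand: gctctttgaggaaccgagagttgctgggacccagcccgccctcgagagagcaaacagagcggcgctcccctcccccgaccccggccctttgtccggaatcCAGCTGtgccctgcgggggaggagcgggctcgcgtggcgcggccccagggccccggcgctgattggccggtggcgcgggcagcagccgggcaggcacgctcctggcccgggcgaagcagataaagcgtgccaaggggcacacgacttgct
NEUROD4, chr12:55019724-55019973, plus strand: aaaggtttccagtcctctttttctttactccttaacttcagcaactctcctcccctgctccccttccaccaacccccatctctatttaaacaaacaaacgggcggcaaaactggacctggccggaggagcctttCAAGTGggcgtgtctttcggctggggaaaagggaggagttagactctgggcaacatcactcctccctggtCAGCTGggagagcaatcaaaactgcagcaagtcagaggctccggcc
ATOH1, chr4:93828503-93828752, plus strand: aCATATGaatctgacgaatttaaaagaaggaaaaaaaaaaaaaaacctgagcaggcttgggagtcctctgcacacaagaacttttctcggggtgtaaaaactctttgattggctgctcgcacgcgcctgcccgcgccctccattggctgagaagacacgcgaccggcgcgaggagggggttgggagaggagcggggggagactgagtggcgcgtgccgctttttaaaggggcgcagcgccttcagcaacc

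RefSeq entries were matched for 7 of the 9 genes; those of OLIG1 and OLIG2 were not analysed here. NEUROG3 carries CAGCTG 150 bases before the start, NEUROD4 carries CAAGTG at 116 and CAGCTG at 46 bases, and ATOH1 carries CATATG at 249 bases. NEUROD2 has 3 E-boxes at 138, 71 and 37 bases, while none was found in the windows of NEUROG1, NEUROG2 and NEUROD1. An E-box was thus present in 4 of 7 promoters, against 61.8% of 34788 promoters of the same length. CAGCTG alone occurs in 13.96% of them and CATATG in 2.61%. The promoters of NEUROG1, NEUROG3 and NEUROD1 were rich in G and C (70.4%, 72.0% and 70.0%), and those of NEUROD4 and ATOH1 were not (53.6% and 55.2%, against a median of 58% for all promoters). The CpG ratio, observed over expected, was 0.98 at NEUROG1 and 0.97 at ATOH1 but 0.34 at NEUROD4 (median of all promoters 0.56).

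Under DMSO the 9 genes were open to different degrees. Per kb of peak, the mean over the DMSO samples of the 9 lines was highest for OLIG1 (12.6 CPM per kb, the 56.3rd percentile of 24295 genes tested) and lowest for NEUROG1 (2.47 CPM per kb, the 15.9th percentile). NEUROG2 (8.06) and ATOH1 (7.18) followed OLIG1, then NEUROD2 (5.12), NEUROD4 (4.72), NEUROG3 (4.25), NEUROD1 (4.13) and OLIG2 (3.27 CPM per kb). The value of NEUROG2 rests on a single peak of 171 bp. It leaves out the peak over the gene's start, which is assigned to NEUROG2-AS1. The assigned peak held 748 counts over all libraries, against 38866 in all peaks within 10 kb by coordinates. The median of all genes tested was 9.96 CPM per kb, and by their assigned peaks 8 of the 9 genes lay below it, NEUROG2 among them.

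The order of the lines under DMSO differed from gene to gene. Copy number of these genes in each line is not known, and its part in the levels was not tested. OLIG1 had the clearest order, with 7 of 8 neighbouring lines separated by their replicate ranges. It was highest in MDA-MB-468 (129 CPM) and BT-20 (103 CPM), followed by MDA-MB-231 (70.2), HCC1937 (60.3), BT-549 (42.9), HCC1395 (35.0), SUM-149PT (34.9), SUM-159PT (23.9) and HCC1143 (17.8 CPM). Only HCC1395 and SUM-149PT overlapped. OLIG2, its neighbour on chromosome 21, was highest in BT-20 (46.3 CPM) and lowest in MDA-MB-231 (11.4 CPM), and the 4 lines HCC1937, HCC1143, SUM-149PT and SUM-159PT each overlapped the next between 17.1 and 13.5 CPM.

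ATOH1 spanned the widest range, 10.1-fold, because BT-20 (3.58 CPM) lay far below MDA-MB-468 (17.1 CPM), the next line up. The 5 lines at its top, from HCC1143 (36.1 CPM) to SUM-149PT (28.5 CPM), each overlapped their neighbour. NEUROG1 fell into a high pair, HCC1143 (29.0 CPM) and BT-549 (27.1 CPM), and 7 lower lines from HCC1937 (14.7 CPM) to SUM-149PT (7.04 CPM) without a further gap. NEUROG3 was high in BT-549 (26.0 CPM) and MDA-MB-468 (24.6 CPM) and reached 16.6 CPM or less in the others, down to HCC1395 (9.33 CPM).

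Counts in the assigned peak of NEUROG2 were small, from 3.35 CPM in HCC1395 to 0.35 CPM in MDA-MB-468, where the 3 DMSO libraries held 0, 6 and 1 counts. NEUROD1 ranged from HCC1143 (23.3 CPM) through BT-549 at the median (12.3 CPM) to MDA-MB-231 (2.88 CPM), which stood apart from the next line. NEUROD2 ranged only 2.75-fold, from BT-549 (41.3 CPM) to SUM-149PT (15.0 CPM). NEUROD4 was highest in SUM-159PT (11.3 CPM) and BT-20 (10.6 CPM), and lowest in SUM-149PT (1.98 CPM). The order of lines thus differed between genes, while some lines recurred at the top. HCC1143 had the highest level for NEUROG1, NEUROD1 and ATOH1, although it overlapped the next line for NEUROG1 and ATOH1.

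**Figure D1:**
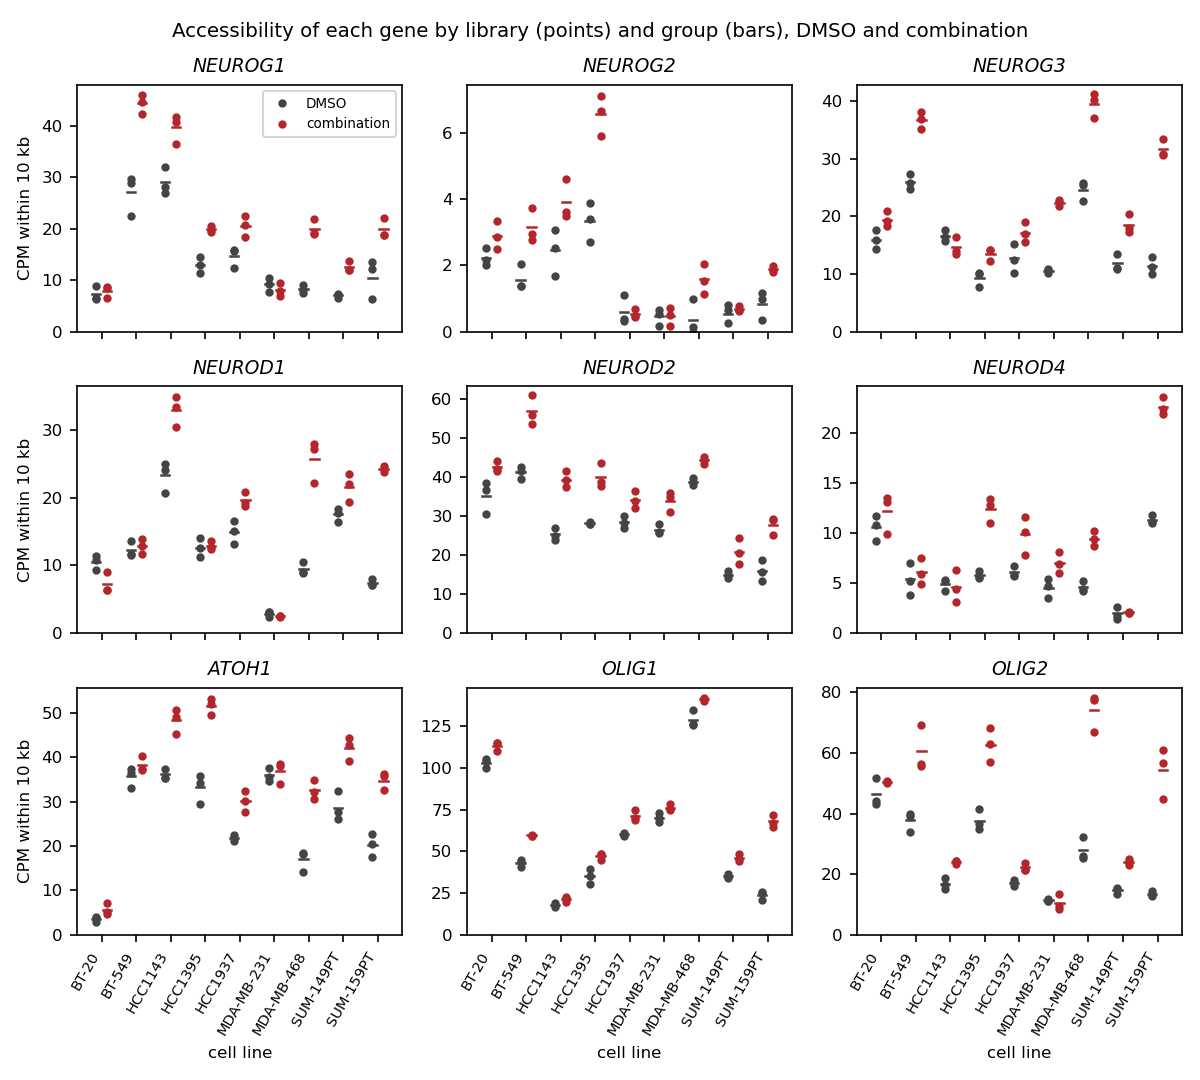
Accessibility within 10 kb of each gene start (CPM, vertical axis from 0) in the 9 lines (horizontal axis) under DMSO (grey) and the combination (red); points are single libraries and bars the level of the 3 libraries summed. Red points lie above grey ones without overlap in all 9 lines for NEUROD2 and OLIG1, while BT-20 shows NEUROD1 lower under the combination.

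The combination raised accessibility at 8 of the 9 genes across the 9 lines and lowered it at none. All 9 genes passed the filter on low counts. Their log2 folds lay between 0.40 and 0.77 with a median of 0.56, while the median of all 24295 genes tested was -0.018. Among all genes, 2473 rose (10.2%) and 4030 fell (16.6%), by edgeR's quasi-likelihood test at an adjusted p below 0.05 with the line as block. NEUROD1 did not pass the test. A higher signal from more cells with an open site, and from a site open more of the time in each cell, cannot be told apart in these bulk samples. In the values that follow, the medians under DMSO and the combination can belong to different lines. The median of the ratios within lines was 1.60-fold for OLIG2, 1.58-fold for NEUROG2, 1.56-fold for NEUROD4, 1.53-fold for NEUROG1, 1.48-fold for ATOH1, 1.44-fold for NEUROG3, 1.38-fold for NEUROD2, 1.23-fold for NEUROD1 and 1.201-fold for OLIG1.

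Among the neurogenins, which start neuronal commitment, NEUROG1 went from a median over lines of 10.5 CPM under DMSO (7.04 to 29.0) to 19.9 CPM under the combination (7.95 to 44.4). It was higher in 8 of 9 lines, and in 7 of them every combination library lay above every DMSO library. The log2 fold was 0.59 ± 0.13 (SE, n = 9 lines, adjusted p = 0.00942). MDA-MB-468 showed the largest ratio, 2.43-fold, from 9.07, 8.03 and 7.45 CPM in its DMSO libraries to 18.9, 21.9 and 19.1 CPM. In BT-20 (1.09-fold) and MDA-MB-231 (0.88-fold) the libraries overlapped and the gene did not pass the test within the line.

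NEUROG3, which initiates endocrine cells of the pancreas, went from a median of 12.7 CPM (9.33 to 26.0) to 19.4 CPM (13.5 to 39.5). Its log2 fold was 0.61 ± 0.14 (SE, n = 9 lines, adjusted p = 0.0112), and 8 of 9 lines were higher without overlap of libraries. SUM-159PT rose from 9.95, 11.2 and 12.9 CPM to 30.8, 33.4 and 30.6 CPM. MDA-MB-231, in which most of the other genes moved little, rose from 10.1, 10.6 and 10.8 CPM to 22.4, 21.7 and 22.9 CPM (log2 fold 1.10 ± 0.11 within the line, adjusted p = 3.48e-14). HCC1143 was the exception at 0.88-fold, with overlapping libraries.

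NEUROG2, a cortical proneural factor, had the largest fold across lines and the fewest counts. Its median went from 0.82 CPM (0.35 to 3.35) to 1.88 CPM (0.46 to 6.56), with a log2 fold of 0.77 ± 0.20 (SE, n = 9 lines, adjusted p = 0.0177). Only 5 of 9 lines were higher without overlap, and it passed the filter on low counts within 5 lines, of which 3 rose (BT-549, HCC1395 and SUM-159PT). HCC1395, the line with the highest level, held 16, 21 and 24 counts under DMSO and 42, 38 and 34 under the combination. Most reads near the NEUROG2 start lie in peaks that the annotation gives to the antisense gene NEUROG2-AS1. With all 8 peaks within 10 kb of the RefSeq start counted, whatever their assigned gene, the log2 fold was 0.27 ± 0.044 (SE, n = 9 lines, adjusted p = 0.00374), a rise but a smaller one.

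The NeuroD genes act later in neuronal differentiation. NEUROD2 changed in the most uniform way, from a median of 28.2 CPM (15.0 to 41.3) to 39.3 CPM (20.9 to 56.9). It was higher without overlap of libraries in 9 of 9 lines and rose by the test within each of them. The ratios ran from 1.14-fold in MDA-MB-468 to 1.75-fold in SUM-159PT, and the log2 fold was 0.44 ± 0.065 (SE, n = 9 lines, adjusted p = 0.00343). In HCC1395 its libraries held 28.02, 27.98 and 28.6 CPM under DMSO and 38.6, 37.7 and 43.6 CPM under the combination.

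NEUROD4 went from a median of 5.43 CPM (1.98 to 11.3) to 9.42 CPM (2.07 to 22.6), with a log2 fold of 0.56 ± 0.15 (SE, n = 9 lines, adjusted p = 0.0187). It rose within 5 lines, HCC1395, HCC1937, MDA-MB-231, MDA-MB-468 and SUM-159PT, by 1.56-fold to 2.15-fold. The libraries of BT-20, BT-549, HCC1143 and SUM-149PT overlapped, with ratios from 0.93 to 1.16. The gene thus separated the lines into a group with a clear rise and a group without one that passed the test.

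NEUROD1, a factor of neuroendocrine cells and of a class of small-cell tumours, moved in both directions among the lines. Its median went from 12.3 CPM (2.88 to 23.3) to 19.6 CPM (2.49 to 32.9), but the log2 fold of 0.43 had an SE of 0.21 and a 95% interval from -0.031 to 0.89 (n = 9 lines, adjusted p = 0.145). The 2 medians belong to BT-549 and HCC1937, and the median ratio within lines was 1.23-fold. SUM-159PT rose 3.28-fold, from 7.997, 7.07 and 7.15 CPM to 23.8, 24.6 and 24.2 CPM. MDA-MB-468 rose 2.72-fold, from 9.07, 8.85 and 10.5 CPM to 27.2, 27.96 and 22.2 CPM. BT-20 moved the other way, from 11.4, 10.9 and 9.25 CPM to 9.07, 6.34 and 6.38 CPM (log2 fold -0.52 ± 0.16 within the line, adjusted p = 0.0104). That was the only fall among the 77 tests of a gene within a line under the combination. It did not pass without the first DMSO library (adjusted p = 0.067) or without the second (0.0817) or the third (0.0758) combination library, nor with DESeq2 (log2 fold -0.53, adjusted p = 0.12). With a 50 kb window the log2 fold was -0.22 (adjusted p = 0.0959), and with all peaks by coordinates -0.17 (0.365).

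ATOH1, which specifies hair cells, cerebellar granule neurons and secretory cells of the gut, went from a median of 28.5 CPM (3.58 to 36.1) to 36.8 CPM (5.62 to 51.5). Its log2 fold was 0.50 ± 0.091 (SE, n = 9 lines, adjusted p = 0.00511), and all 9 lines were higher, 7 of them without overlap. MDA-MB-468 gave the largest ratio, 1.91-fold, from 18.1, 14.3 and 18.4 CPM to 34.8, 30.5 and 32.1 CPM. BT-20 rose 1.57-fold from the lowest DMSO level of any line. BT-549 (1.07-fold) and MDA-MB-231 (1.02-fold) had overlapping libraries.

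OLIG2, the master factor of the oligodendrocyte lineage, went from a median of 17.1 CPM (11.4 to 46.3) to 50.4 CPM (10.6 to 74.2). These medians belong to HCC1937 and BT-20, and the median ratio within lines was 1.60-fold. The log2 fold of OLIG2 was 0.72 ± 0.18 (SE, n = 9 lines, adjusted p = 0.0168). SUM-159PT rose 4.05-fold, from 13.1, 12.8 and 14.5 CPM to 44.9, 61.1 and 56.6 CPM, and MDA-MB-468 rose 2.64-fold, from 32.4, 25.2 and 26.1 CPM to 77.5, 78.1 and 66.9 CPM. The other lines that rose did so by 1.296-fold to 1.66-fold. BT-20, which had the highest DMSO level (51.7, 44.0 and 43.2 CPM), reached 50.8, 50.2 and 50.3 CPM with overlapping libraries, and MDA-MB-231 overlapped as well at 0.93-fold.

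OLIG1, which acts with OLIG2 in oligodendrocyte maturation, was higher without overlap of libraries in all 9 lines, mostly by a small amount. Its median went from 42.9 CPM (17.8 to 129) to 68.0 CPM (21.4 to 141), and the log2 fold was 0.40 ± 0.12 (SE, n = 9 lines, adjusted p = 0.0325). The ratios were 1.09-fold to 1.39-fold in 8 lines and 2.84-fold in SUM-159PT, where the libraries went from 24.97, 20.8 and 25.7 CPM to 64.7, 67.2 and 71.7 CPM. Leaving out SUM-159PT lowered the log2 fold to 0.27 (adjusted p = 0.00582). Without BT-549, HCC1395 or SUM-149PT the adjusted p was 0.0588, 0.0587 and 0.0514, past the threshold, while the log2 fold was 0.41, 0.39 and 0.42.

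**Figure D2:**
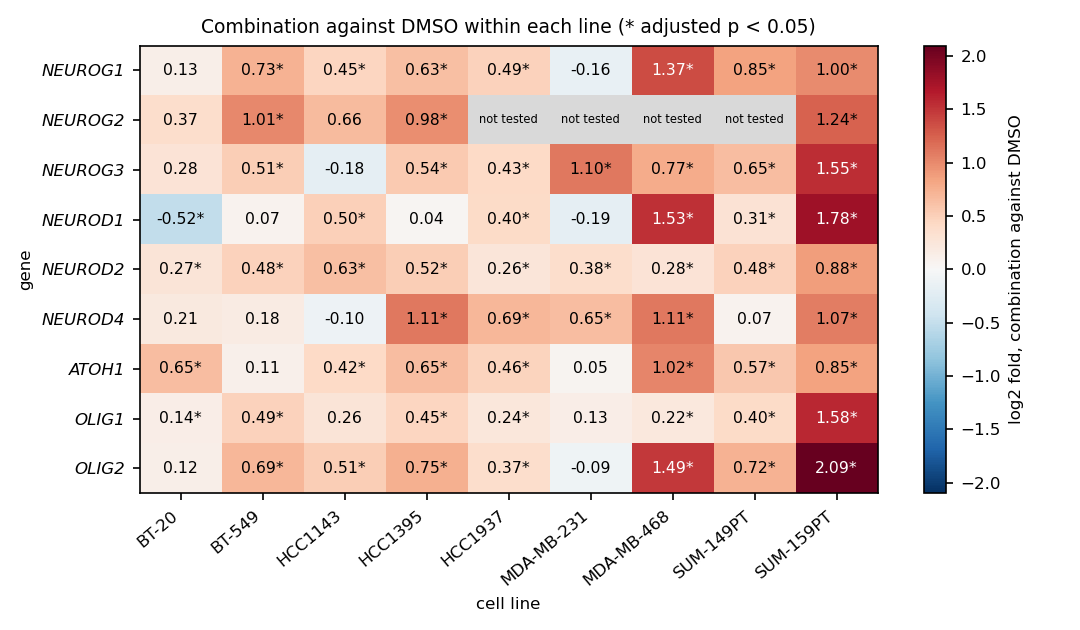
Log2 fold of the combination against DMSO within each line (colour and printed value) for each gene (rows) and line (columns), with an asterisk where edgeR's adjusted p was below 0.05 within the line. SUM-159PT has an asterisk for all 9 genes, MDA-MB-231 for 3, and the only asterisk on a negative value is NEUROD1 in BT-20.

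Within single lines the 9 genes gave 77 tests, in which 57 rose and 1 fell. These tests use single libraries, so their p-values cover the spread between libraries, which was that of counting, and not the spread between cultures. The scaling is set within each line, so a log2 fold can differ by up to about 0.1 from the ratio of the CPM given above. All 9 genes rose in SUM-159PT (all genes: 27.9% rose), and all 8 genes tested rose in MDA-MB-468 (26.4%) and in HCC1937 (16.1%). In HCC1395 8 of 9 rose (16.8%), in SUM-149PT 7 of 8 (16.9%), in BT-549 6 of 9 (24.3%) and in HCC1143 5 of 9 (19%).

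MDA-MB-231 and BT-20 responded least. In MDA-MB-231 only NEUROG3, NEUROD2 and NEUROD4 rose of 8 genes (all genes: 15.2%). In BT-20 NEUROD2, ATOH1 and OLIG1 rose of 9 (11.9%), and NEUROD1 fell (all genes: 9.46% fell). The F test of line by treatment found that the size of the response differed between lines for 8 of the 9 genes, all but NEUROG2 (adjusted p = 0.104). With all peaks within 10 kb counted by coordinates, NEUROG2 passed this test too (adjusted p = 6.7e-08). Such differences were common, however, at 73.7% of 23674 genes tested. The lowest adjusted p was that of OLIG1 (1.81e-33), followed by NEUROD1 (5.13e-25) and NEUROG3 (4.34e-16), which is not an order of size. By the F value, OLIG2 (23.7) came before NEUROG3 (16.7). Log2 folds within lines ran from 0.13 to 1.58 for OLIG1, from -0.52 to 1.78 for NEUROD1 and from -0.092 to 2.09 for OLIG2.

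The 4 lines with all treatments show what each agent did. Under tazemetostat alone, 7 of 9 genes rose across the 4 lines and none fell (all genes: 9.81% rose), with a median log2 fold of 0.83 against -0.017 for all 24002 genes tested. NEUROD1 (0.83 ± 0.29, adjusted p = 0.0515) and OLIG1 (0.49 ± 0.25, adjusted p = 0.144) did not pass. NEUROG2 had the largest fold (1.13 ± 0.29, adjusted p = 0.0174), then OLIG2 (1.08 ± 0.37, adjusted p = 0.0475) and NEUROG3 (0.92 ± 0.15, adjusted p = 0.00349; SE, n = 4 lines in each case). The NEUROG2 value rests on its single assigned peak. With all peaks within 10 kb of the RefSeq start counted, it was 0.23 ± 0.059 (adjusted p = 0.0163), a rise but a smaller one. NEUROD4 (0.86 ± 0.16), NEUROG1 (0.79 ± 0.25), ATOH1 (0.52 ± 0.14) and NEUROD2 (0.40 ± 0.12) rose as well, with adjusted p of 0.00531, 0.0385, 0.0182 and 0.0331.

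This count was not stable. Without MDA-MB-468, SUM-149PT or SUM-159PT it fell to 2 in each case, and with only the DMSO and tazemetostat groups in the fit it was 0. With all peaks counted by coordinates, NEUROD2 did not pass (0.19 ± 0.066, adjusted p = 0.0524). With total counts in all peaks as library size, which moves the median of all genes under tazemetostat to -0.12, 7 of 9 still rose. With offsets that follow the trend over abundance, 3 of 9 rose and the members' median fell from 0.83 to 0.53. With all peak totals 8.03% of all genes rose and 35.2% fell, against 9.81% and 18.7% on the scale used here.

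Library by library, the tazemetostat response followed the line. OLIG2 in SUM-159PT held 46.3, 51.7 and 48.8 CPM against 13.1, 12.8 and 14.5 CPM under DMSO, and in MDA-MB-468 it held 80.2, 75.0 and 80.2 CPM against 32.4, 25.2 and 26.1 CPM. In MDA-MB-231 it held 9.66, 12.8 and 10.1 CPM against 11.9, 11.1 and 11.2 CPM. The first 2 of these lines rose with no overlap, and the third did not move beyond the spread of its libraries.

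NEUROG3 and OLIG1 rose by the test within all 4 lines. NEUROG3 did so by 1.57-fold in MDA-MB-468 to 2.38-fold in SUM-159PT, with no overlap of libraries. OLIG1 rose 2.86-fold in SUM-159PT but only 1.04-fold in MDA-MB-468, where libraries overlapped and the sign turned with total counts in all peaks as library size (log2 fold -0.016). NEUROD1 reached 21.9, 23.5 and 26.6 CPM in MDA-MB-468 and 22.6, 23.3 and 22.6 CPM in SUM-159PT, 2.53-fold and 3.09-fold above DMSO. In MDA-MB-231 it stayed near its low DMSO level (0.88-fold, libraries overlapping). Within lines, tazemetostat raised 3 of 8 genes in MDA-MB-231 (all genes: 15.5%), 8 of 8 in MDA-MB-468 (27.5%), 7 of 8 in SUM-149PT (16.9%) and 9 of 9 in SUM-159PT (28.1%).

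Ipatasertib alone left the 9 genes within the spread of the fit across lines. None of the 9 was called across the 4 lines, where the percentage called over all 24002 genes was 0. At an unadjusted p below 0.05 there were 539 genes and 0 of the 9, and DESeq2 called 0 genes. The log2 folds of the 9 genes lay between -0.11 (OLIG2) and 0.17 (NEUROG2), and their 95% intervals together reached from -0.92 to 0.87. The fit takes its spread from all 4 treatments together. These intervals therefore also hold the differences between lines in the tazemetostat and combination responses, and do not measure the spread under ipatasertib alone. For OLIG2, the log2 ratios of ipatasertib to DMSO were -0.40 in SUM-159PT, -0.25 in MDA-MB-468, -0.13 in SUM-149PT and 0.17 in MDA-MB-231. Within lines the 33 tests gave 1 call, a fall of OLIG2 in MDA-MB-468 (log2 fold -0.28 ± 0.078, adjusted p = 0.0294; all genes: 3.91% fell).

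That fall was from 32.4, 25.2 and 26.1 CPM to 26.8, 21.5 and 22.5 CPM, with overlapping libraries. It was lost without the first DMSO library or without the second or the third ipatasertib library. No gene of the 9 was called in MDA-MB-231 (all genes in either direction: 0.172%), SUM-149PT (4.97%) or SUM-159PT (0.767%). OLIG2 in SUM-159PT had all ipatasertib libraries (10.2, 9.35 and 11.03 CPM) below its DMSO libraries but did not pass (adjusted p = 0.219). Libraries were also separate, without passing, for ATOH1 in MDA-MB-468 (1.17-fold, all higher) and, all lower, for NEUROG1 (0.84-fold) and OLIG1 (0.97-fold) in MDA-MB-468 and NEUROG3 in SUM-149PT (0.85-fold).

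**Figure D3:**
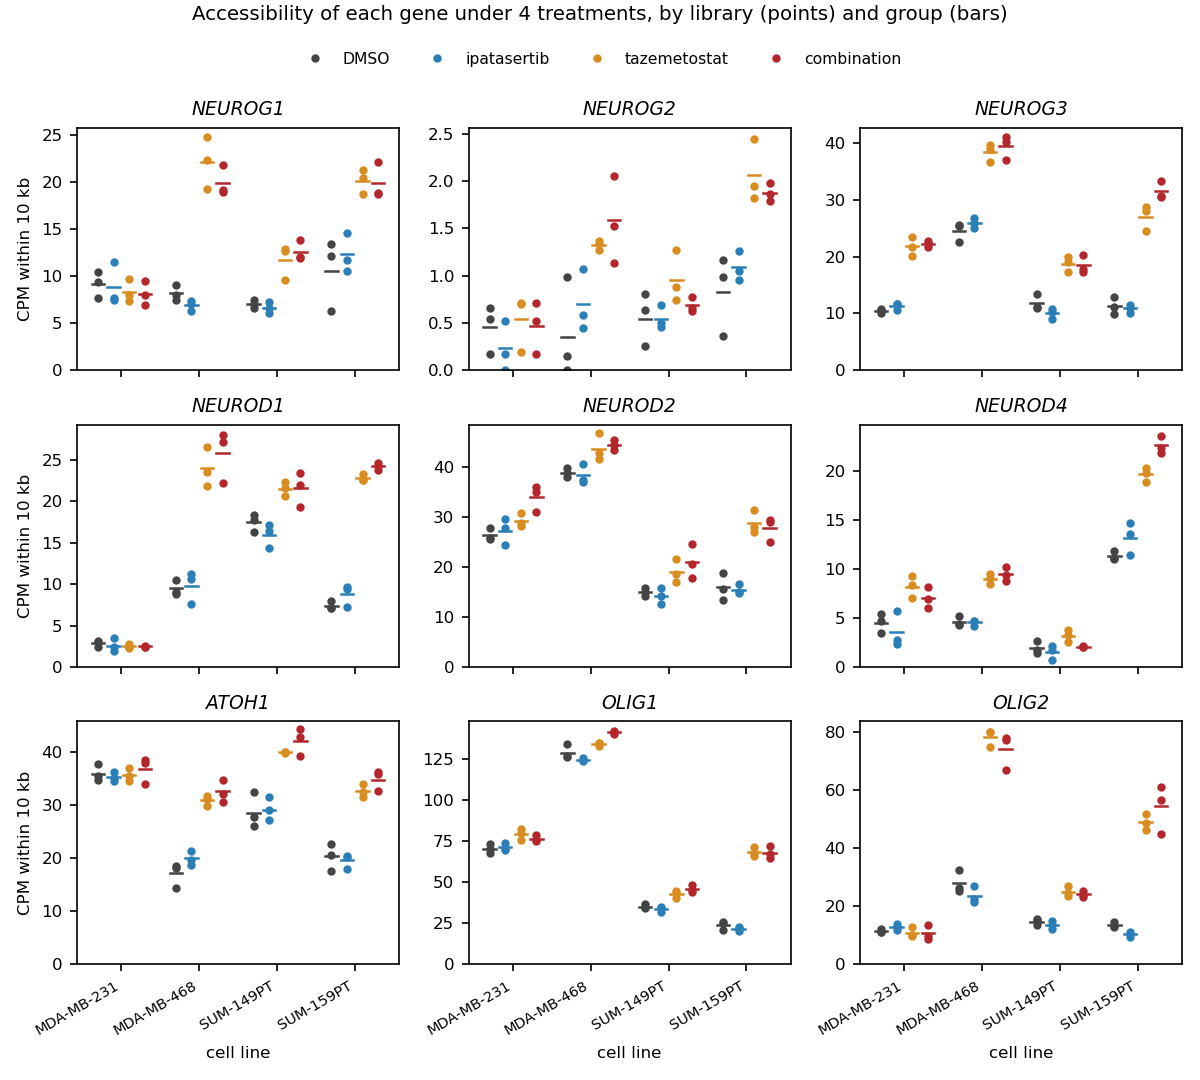
Accessibility within 10 kb of each gene start (CPM, vertical axis from 0) in the 4 lines with all treatments (horizontal axis); points are single libraries, bars the 3 libraries summed, and colours the treatment. Tazemetostat and combination libraries lie together above DMSO and ipatasertib libraries for OLIG2 and NEUROD1 in MDA-MB-468 and SUM-159PT, and all 4 treatments lie together for OLIG2 in MDA-MB-231.

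Adding ipatasertib to tazemetostat gave no detectable further change. Of the 9 genes, 0 differed between the combination and tazemetostat across the 4 lines (all genes called: 0 of 24002, 1043 at an unadjusted p below 0.05 with none of the 9 among them, and 2 by DESeq2). Log2 differences lay between -0.10 and 0.077, with 95% intervals reaching from -0.76 to 0.78. The narrowest interval was that of NEUROD2, from -0.19 to 0.35. For OLIG2 the difference was 0.011 with an interval from -0.76 to 0.78, the widest of the 9. These intervals use the shared spread of all 4 treatments, which includes differences between lines in the response against DMSO. OLIG2 levels under the combination and tazemetostat were 74.2 and 78.5 CPM in MDA-MB-468, and 54.5 and 49.0 CPM in SUM-159PT. They were 24.0 and 24.8 CPM in SUM-149PT, and 10.6 and 10.8 CPM in MDA-MB-231.

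The test of a departure from the sum of both agents on the log2 scale also called 0 of the 9 genes and 0 of all genes (64 at an unadjusted p below 0.05, 0 by DESeq2). Estimates for the 9 genes lay between -0.27 (NEUROG2) and 0.12 (OLIG2), and their intervals, from the same shared spread, reached from -1.17 to 1.24. The comparisons against DMSO share their DMSO samples, and the single-agent values are given side by side for that reason.

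**Figure D4:**
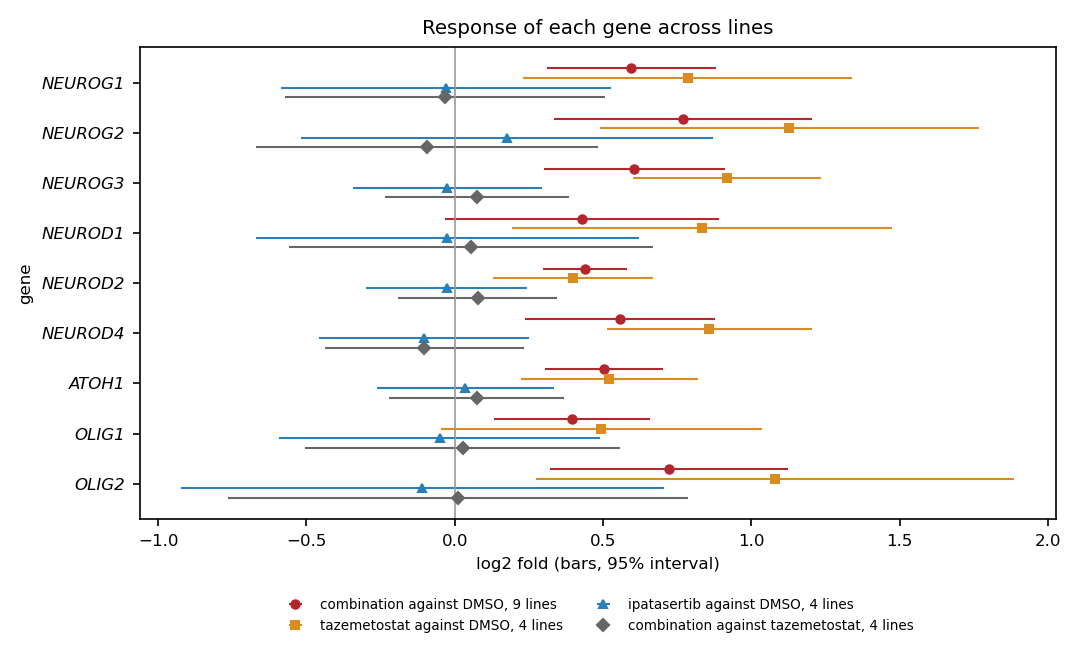
Log2 fold of each gene (vertical axis) across lines with its 95% interval (horizontal axis, edgeR): combination against DMSO over 9 lines, and tazemetostat against DMSO, ipatasertib against DMSO and combination against tazemetostat over 4 lines. The interval of the combination lies above 0 for all genes but NEUROD1, and the intervals of ipatasertib and of combination against tazemetostat include 0 for every gene. The comparisons over 4 lines share a spread taken from all treatments.

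The 70 single peaks show where the gain lay. The annotation places 21 in promoters, 32 in intergenic DNA, 11 in introns and 6 in exons, and they measure 150 to 2209 bp. Of the 65 peaks that passed the filter, 13 rose across the 9 lines and 0 fell (all 736873 peaks tested: 2.28% rose), and 58 had a log2 fold above 0. The share of all peaks with a log2 fold above 0 was not counted, so counts of sign are description only. At least 1 peak rose for each gene but NEUROD1. Leaving out HCC1395, HCC1937 or SUM-159PT reduced the 13 to 7, 8 and 7.

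Peaks over the start rose for NEUROG1, NEUROG3, NEUROD4, ATOH1 and OLIG2. The NEUROG1 start peak (chr5:135535024-135536727, hg38) held 35.0% of that gene's counts and went from a median of 2.74 CPM (1.15 to 11.7) to 5.51 CPM (1.33 to 17.5), higher in 9 of 9 lines (log2 fold 0.76 ± 0.16, SE, adjusted p = 0.00964). The NEUROG3 start peak (chr10:69573252-69575461) held 74.6% and rose by 0.75 ± 0.14 (adjusted p = 0.00528) in 8 of 9 lines, all but HCC1143. Both peaks contain the promoter sequence printed above for their gene.

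The NEUROD4 start peak (chr12:55019469-55020385) held 94.1% of that gene's counts and rose by 0.54 ± 0.14 (SE, adjusted p = 0.0344), in SUM-159PT from 10.9 to 21.8 CPM. The ATOH1 start peak (chr4:93828148-93829910) held 85.7% and rose by 0.37 ± 0.097 (adjusted p = 0.0329), from a median of 25.6 CPM (1.62 in BT-20 to 33.5) to 33.0 CPM (2.05 in BT-20 to 47.5). A small ATOH1 peak 2643 bp upstream (chr4:93825876-93826110) rose by 0.81 ± 0.22 (adjusted p = 0.0351) and was higher in 9 of 9 lines. BT-20 thus had almost no open DNA at the ATOH1 start under DMSO or the combination.

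OLIG2 had the most peaks that rose, 5 of 14 (all peaks tested: 2.28%), and all 14 had a log2 fold above 0. Its start peak (chr21:33025108-33026374) rose by 0.73 ± 0.16 (SE, adjusted p = 0.0139). This peak held 30.2 CPM in BT-20 under DMSO but 0.98 CPM in MDA-MB-231, with a median of 4.67 CPM over lines. BT-20, and HCC1395 with 22.5 CPM, were thus open at the start under DMSO. MDA-MB-231 was nearly closed under DMSO and under the combination (0.93 CPM under the combination). The peaks 6525 bp (1.08 ± 0.24, adjusted p = 0.0133) and 3819 bp (0.87 ± 0.20, adjusted p = 0.0169) upstream lie in an intron of another annotated transcript. MDA-MB-468 was the highest line at both under the combination, at 4.76 CPM (1.24 under DMSO) and 8.52 CPM (2.14 under DMSO). Downstream, the peaks at 2543 bp (1.36 ± 0.33, adjusted p = 0.0222; 250 counts in all libraries) and 4162 bp (0.63 ± 0.18, adjusted p = 0.0446) rose.

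At the other genes the peaks that rose were minor ones. For OLIG1 it was a peak 2587 bp upstream (chr21:33067207-33067554, 1.54% of its counts, 0.79 ± 0.22, adjusted p = 0.041), while its start peak with 48.8% of the counts did not pass (0.42 ± 0.20, adjusted p = 0.263). For NEUROD2 it was a peak 4132 bp downstream in an exon (chr17:39603347-39603788, 5.39%, 0.84 ± 0.18, adjusted p = 0.0143), and the largest peak at 612 bp did not pass (0.27 ± 0.11, adjusted p = 0.161). The NEUROD2 window holds no peak over the RefSeq start itself. For NEUROG2 the single assigned peak, 1813 bp downstream (chr4:112514196-112514367), rose by 0.71 ± 0.20 (adjusted p = 0.0451).

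The peak over the NEUROG2 start is assigned to NEUROG2-AS1 and was open in all lines, from 25.7 CPM in MDA-MB-231 to 78.2 CPM in HCC1395 under DMSO. It did not pass (0.16 ± 0.082, adjusted p = 0.267). Open DNA shared by the gene and its antisense partner cannot be credited to either of them. None of the 7 NEUROD1 peaks tested passed. The largest, 3597 bp upstream in an exon of another annotated transcript, held 57.8% of the gene's counts (0.38 ± 0.17, adjusted p = 0.191) and was higher in 6 of 9 lines, all but BT-20, BT-549 and HCC1395. The peak over the NEUROD1 start is assigned to CERKL and did not pass either (0.23 ± 0.23, adjusted p = 0.597).

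**Figure D5:**
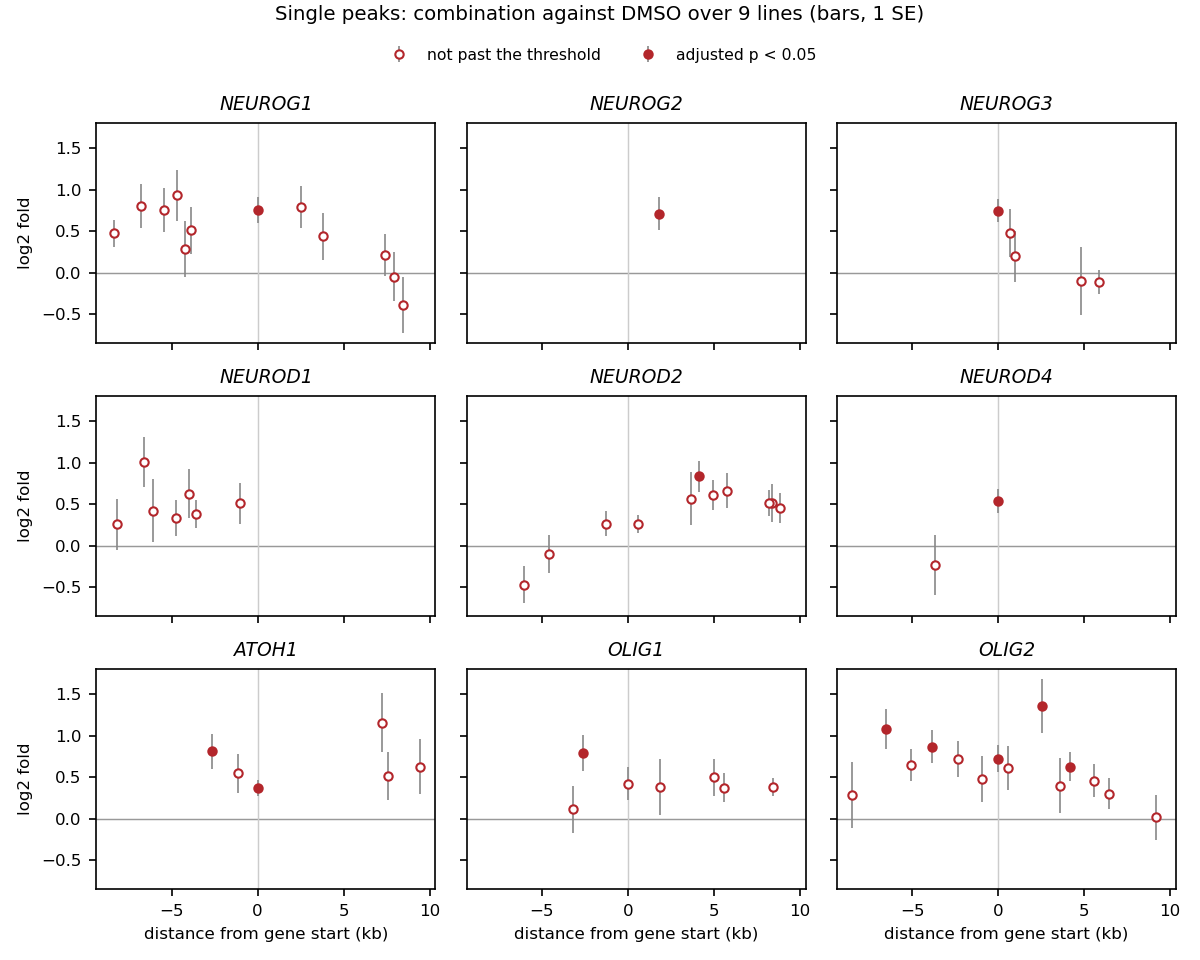
Log2 fold of the combination against DMSO over 9 lines (vertical axis, bars 1 SE) for each tested peak against its distance from the gene start in kb (horizontal axis; negative values are upstream). Filled points passed an adjusted p below 0.05; they include the start peaks of NEUROG1, NEUROG3, NEUROD4, ATOH1 and OLIG2, and all 14 OLIG2 peaks lie above 0.

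Under tazemetostat alone across the 4 lines, 4 of 61 member peaks rose and 0 fell (all 616325 peaks tested: 1.87% rose). These were the ATOH1 peak at 2643 bp upstream (log2 fold 1.15, adjusted p = 0.0297), the NEUROG3 start peak (0.88, adjusted p = 0.0271), the OLIG2 peak at 6525 bp upstream (1.62, adjusted p = 0.0177) and the OLIG2 start peak (1.05, adjusted p = 0.0498). None of the 61 passed for ipatasertib, for the combination against tazemetostat or for the departure from the sum.

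Genes that work with these factors were read from 6 lists of 67 genes, also chosen with earlier results of these data known. Of 13 other neural bHLH genes, 9 rose (all genes: 10.2%) and 0 fell under the combination, with a median log2 fold of 0.56. NEUROD6, a factor of cortical neurons (1.09 ± 0.18, adjusted p = 0.00387), FERD3L (0.85 ± 0.17, adjusted p = 0.00674) and OLIG3, a spinal cord factor (0.77 ± 0.19, adjusted p = 0.0153), led them. The sum of the list over DMSO samples was 245 to 453 CPM and under the combination 313 to 540 CPM. The median of all genes tested was -0.018.

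The partners and inhibitors of bHLH factors did not pass. Of 6 E protein and ID genes tested, 0 rose and 0 fell. TCF12, an E protein, had the largest value (0.40 ± 0.22, adjusted p = 0.183), then the inhibitor ID4 (0.30 ± 0.14, adjusted p = 0.136). Of 13 Notch pathway genes, HEY2, a Notch-induced repressor, rose (0.22 ± 0.045, adjusted p = 0.00777), and the ligand JAG1 fell (-0.11 ± 0.031, adjusted p = 0.0279), and the median was 0.075. A count of 1 of 13 in each direction is no more than the share of all genes that rose (10.2%) or fell (16.6%).

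Downstream genes were read from a neuronal and an oligodendrocyte list. Of 11 neuronal and neuroendocrine genes 3 rose (all genes: 10.2%), and the list median was 0.083. These were INSM1, a zinc finger factor of neuroendocrine cells (0.55 ± 0.14, adjusted p = 0.0156), SNAP25, a synaptic vesicle fusion protein (0.25 ± 0.069, adjusted p = 0.0242), and EOMES, a factor of intermediate progenitors (0.18 ± 0.045, adjusted p = 0.0162). The summed level of the 11 was 405 to 776 CPM over lines under DMSO and 406 to 760 CPM under the combination, with 1 gene at 0 in a line. Of 7 oligodendrocyte genes 2 rose (all genes: 10.2%), with a list median of 0.15. They were NKX2-2, a factor that acts with OLIG2 (0.62 ± 0.12, adjusted p = 0.00711), and SOX8 (0.36 ± 0.11, adjusted p = 0.0362). The summed level of the 7 was 198 to 318 CPM under DMSO and 200.2 to 372 CPM under the combination. The other 4 listed genes were not analysed here. NKX2-2 and SOX8 are transcription factors, and the myelin genes MBP (-0.097 ± 0.049, adjusted p = 0.159) and MAG (0.14 ± 0.12, adjusted p = 0.385) did not pass. MBP and MAG were named after their values were seen.

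Of 7 PRC2 subunits, RBBP4, a histone chaperone shared with other complexes, fell (-0.72 ± 0.16, adjusted p = 0.0106) and the others did not pass, so that 1 of 7 fell where 16.6% of all genes did. EZH2, the target of tazemetostat, had a value of -0.030 ± 0.029 (adjusted p = 0.454), and was likewise named after its value was seen. Of the epithelial markers EPCAM fell (-0.31 ± 0.089, adjusted p = 0.0266), 1 of 5 where 16.6% of all genes fell, and of 4 mesenchymal markers none passed. The summed epithelial level over lines was 81.5 to 806 CPM under DMSO and 113 to 746 CPM under the combination, and the part of these markers in the result was not tested.

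Across the 26 groups of line and treatment, the genes on other chromosomes with the closest course were named for each factor by Pearson's r of log2 CPM. The groups share lines and libraries, so these values describe the table and carry no test. NEUROG2 was most like EVX2 (r = 0.96) and EMX2 (0.89), both homeobox genes, and NEUROG1 most like MOS (0.89) and UNCX (0.88). ATOH1 was closest to COL19A1 (0.95) and LRRC8C-DT (0.95), NEUROD1 to LOC105375983 (0.94) and MPPED2 (0.94), and NEUROD2 to AKAP17BP (0.91) and TCTE1 (0.90). NEUROD4 was closest to LOC105370829 (0.92) and CD5L (0.87), NEUROG3 to LINC01574 (0.87) and RSPO1 (0.85), OLIG1 to LOC112268252 (0.91) and FRMPD3 (0.91), and OLIG2 to PRDM16-DT (0.92) and PROX1 (0.92). These 18 are the closest of 24295 genes for each factor, and high values are partly given by that choice.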

How the data were processed

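ATAC-seq was analysed in 78 libraries of 9 lines; the labels list 84 samples, and the 6 of HCC1806 were not analysed here. The authors deposited whole-number counts for each peak, not normalized, and an annotation with a gene, a genomic class and a distance to the transcription start for each peak. The submitters' processing notes name MACS2, featureCounts and the hg38 build, without versions. The aligner, removal of duplicates and any Tn5 shift remain not given in the sources used here. Counts over whole peaks change little with a shift of a few bases, while duplicate removal would lower dense sites. The 61 peaks without a symbol were left out of gene sums. Peak coordinates are printed as deposited.

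Gene counts were tested in R 4.3.3 with edgeR 4.0.16 (TMM, filterByExpr with a minimum count of 10, robust quasi-likelihood F test, Benjamini-Hochberg over all genes or peaks, threshold 0.05). Libraries of a group were summed and the line was the block; fits within a line and of line by treatment used single libraries. The biological coefficient of variation was 13.4% across 9 lines and 13.3% across 4. SE is the log2 fold over the square root of F. On simulated counts for 24295 genes and 9 lines, 68 of 100 genes changed by a log2 of 0.5 and 96 of 100 changed by 1 were recovered; for 24002 genes and 4 lines, 48 and 85. Alternatives were DESeq2 1.42.0, other scalings, filters and windows, fits of the compared groups alone, a replicate block and leaving out lines or libraries.

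The members and lists were chosen with earlier results of these data known. Named are the 9 genes, up to 3 called genes of each list with the largest fold (the 2 largest where none was called), each gene's largest peak and every called peak, and the 2 most correlated genes (prior count of 2) for each factor. CPM use TMM effective library sizes of counts within 10 kb of genes.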

Additional observations from a re-analysis of the deposited data

Results flagged for a closer look

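Over the 9 lines, the log2 ratio of the combination to DMSO at OLIG1 was 1.51 in SUM-159PT, and the gap to the next line was 74.5% of the whole range. Over the 4 lines with all treatments, the log2 ratio of tazemetostat to DMSO at OLIG1 was 1.52 in SUM-159PT, a gap of 84.7% of the range. Both use the same DMSO libraries. Of 36 groups of values examined in this way 2 stood out, and chance gives about 1 in 20.

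The combination response differed between lines by the F test of line by treatment for NEUROG1 (adjusted p = 1.89e-07), NEUROG3 (4.34e-16), NEUROD1 (5.13e-25), NEUROD2 (3.23e-05), NEUROD4 (3.39e-06), ATOH1 (3.34e-13), OLIG1 (1.81e-33) and OLIG2 (5.88e-12), all edgeR. The error in this test is that between libraries of 1 line, and 73.7% of all genes passed it.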

How the results depend on the processing

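The 8 genes called for the combination across lines stayed at 8 under other scalings, filters, the 50 kb window, counting by coordinates and DESeq2, were 6 with a 1 kb window, and ranged from 7 to 8 when a line or replicate was left out; 3 of these alternatives (coordinates, total counts in all peaks, leaving out DMSO library 3 of HCC1395; 8 in each case) were chosen after seeing the data. The count for tazemetostat (7) was 3 with abundance-trended offsets, 0 with the compared groups alone and 2 to 8 with a line or replicate left out (2 without MDA-MB-468, SUM-149PT or SUM-159PT). The 13 peaks ranged from 7 to 14 (7 without HCC1395, 8 without HCC1937, 7 without SUM-159PT, 14 without DMSO library 3 of HCC1395). Counts for ipatasertib, combination against tazemetostat and the departure from the sum were 0 throughout, and the response differed between lines for 7 to 9 genes. Pathway calls (17) ranged from 13 to 20.

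Within lines, the 58 combination calls were 42 with a 1 kb window, 46 with DESeq2 and 55 to 59 with a library left out, and the 27 tazemetostat calls were 20, 24 and 25 to 28. The 1 ipatasertib call was 0 with windows of 1 kb and 50 kb and with DESeq2, and 0 to 1 with a library left out. With the replicate number as a block the calls were 59, 28 and 1, although the numbers did not pair the samples: of 51 same-numbered pairs, 0 had a correlation of deviations over 0.1 (median 0.0048). For single genes, tazemetostat in MDA-MB-468 turned to -0.0073 for NEUROD2 (50 kb window, adjusted p = 0.903) and to -0.016 for OLIG1 (total counts in all peaks, adjusted p = 0.73). Apart from these 2, 162 values of genes or single peaks lost and 6 gained their call under an alternative and 2229 did neither. Within lines and for single peaks, only results that had been called were followed. Those could lose a call but not gain one, so losses and gains cannot be set against each other. All 6 gains were of NEUROD1 under tazemetostat across the 4 lines. The cause of these changes was not tested. NEUROG2 has 748 counts in all libraries in its 1 assigned peak, against 38866 in all peaks within 10 kb by coordinates.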
